A study of Mus musculus with 38 samples.

Results

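Whole bone marrow of mice with leukaemia started by the fusion oncogene MLL-GAS7 was compared with normal mouse marrow across all genes on an Affymetrix oligonucleotide array. The comparison used the 5 arrays whose titles name MLL-GAS7 marrow (mice GAS7_405, GAS7_406, GAS7_407, GAS7_408 and GAS7_410) and the 4 whose titles name normal marrow (samples 1 to 4), 9 of the 38 arrays in the study. Per the labels, marrow progenitors bearing the c-kit receptor were infected with a retrovirus that carried the oncogene and were put into syngeneic C57BL/6 mice, male or female, that had been irradiated with a lethal dose. Marrow of the leukaemic mice was taken at euthanasia. Normal marrow came from wild type C57BL/6 mice, male or female, and the labels give them neither irradiation, nor a transplant, nor an empty virus, so leukaemia cannot be told apart from these steps. RNA of both groups was extracted with Trizol from cryopreserved marrow cells and labelled with biotin. The other 29 arrays, from MLL-AF1p (9), MLL-AF10 (8), MLL-AF9 (5) and MLL-ENL (7) leukaemias made the same way, were used to ask where MLL-GAS7 marrow differed from its companions. No age, time to disease or share of leukaemic cells in the marrow is given in the labels.

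MLL (mouse gene Kmt2a) is a histone methyltransferase that keeps HOX genes active in early blood cells. When a chromosome break joins its front part to a partner protein, the fusion holds HOXA9, HOXA10 and their cofactor MEIS1 at levels that normal cells reach only as stem or progenitor cells. GAS7 is a cytoplasmic protein with an F-BAR domain, a fold that bends membranes and binds the cytoskeleton, whereas many other MLL partners work in the nucleus on transcript elongation. Normal marrow is a mixture in which red cell precursors, maturing neutrophils and B cell precursors make up most cells.

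Levels are given as log2(intensity + 46.1) after every array had been shifted to the same median, so a difference of 1 is a change of 2-fold. On this scale the median gene had a level of 9.09 in MLL-GAS7 marrow and 9.06 in normal marrow, and an intensity of 0 would lie at 5.53 before the shift. Wherever every sample is listed, the 5 leukaemic values are those of mice GAS7_405, GAS7_406, GAS7_407, GAS7_408 and GAS7_410, and the 4 normal values those of samples 1, 2, 3 and 4. A change is MLL-GAS7 minus normal with its standard error (SE), SD is the spread between mice, and a gene is said to have risen or fallen when its Benjamini-Hochberg adjusted p from limma was under 0.05 over all 13332 genes tested. Because whole marrow was measured, fewer cells of a type and less RNA per cell cannot be told apart.

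The deposited intensities had a trimmed mean of 500 on each of the 9 arrays, and the median intensity ran from 141.3 to 206.8 on the MLL-GAS7 arrays and from 160.1 to 184.9 on the normal arrays. Mouse GAS7_407, whose median intensity of 206.8 was the highest of the 9, stood apart from the other leukaemic mice. Its mean correlation with them over genes was 0.895, where theirs ran from 0.922 to 0.939 and those of the normal samples from 0.945 to 0.954, and on the second principal component it lay at -67.4, with the other 8 arrays between -4.8 and 30.4. A division into 2 sets of arrays, which 7 of the 400 most bimodal probe sets shared, put mice GAS7_406 and GAS7_407 in set 1 and mice GAS7_405, GAS7_408 and GAS7_410 with all 4 normal samples in set 2. Over all 38 arrays set 2 held 22, and values within set 2 come from a fit of these. The X-inactivation RNA Xist had levels of 14.24 to 15.11 in MLL-GAS7 marrow and 8.18 to 9.09 in normal marrow, and the Y-linked gene Eif2s3y had levels of 5.56 to 6.49 in MLL-GAS7 marrow and 9.77 to 10.41 in normal marrow. Sex-linked genes thus divided the arrays exactly as disease did, sex and leukaemia cannot be told apart in these 9 arrays, and the genes of chromosomes X and Y, of which 76 were higher and 40 lower, were set aside. The log2 ratio of 3' to 5' actin signal was 0.313 ± 0.108 in MLL-GAS7 marrow and 0.136 ± 0.0625 in normal marrow (SD, n = 5 and 4, exact two-sided permutation p = 0.0476, adjusted over 4 quality signs 0.0952). The 18S RNA signal was 8.90 ± 1.35 in MLL-GAS7 marrow and 7.12 ± 0.457 in normal marrow (exact permutation p = 0.0476, adjusted 0.0952). The part of these signs in the results was not tested.

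MLL-GAS7 marrow differed from normal marrow in 3483 of 12851 genes of chromosomes 1 to 19, which is 27.1% of them. Of these, 2132 genes were higher (16.6% of those tested) and 1351 lower (10.5%), and these shares are the background for each count of a gene list below. Falls were the larger changes: 847 of the lower and 659 of the higher genes moved at least 2-fold. The filter on low values could admit a gene through the 4 normal samples alone, and such a gene could only fall. With a filter on 9 arrays the lower calls numbered 1160 and the higher calls 2132. The part of the filter in the larger falls was not tested. In 1429 genes all 5 MLL-GAS7 mice lay above all 4 normal samples (11.1%), and in 1097 all 5 lay below (8.54%). The median change over all genes was 0.11. The higher share of the calls was 61.2%, against 56.7% on the unshifted scale of the deposit and 58.2% under quantile normalization. The spread between mice was wider in leukaemia, with a median SD of 0.393 in MLL-GAS7 marrow and 0.269 in normal marrow.

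The 15 largest rises among called genes without overlap were those of Mycn, Slc4a8, Apoc2, Hoxa9, Sgip1, Hpgd, Penk, Dsp, Tctex1d1, Eml5, Eya1, Stfa3, Bex6, Klhl41 and Tln2. Slc4a8, a sodium bicarbonate transporter, had levels of 11.53, 11.75, 10.96, 12.08 and 11.44 in the MLL-GAS7 mice, against 7.45, 6.30, 7.45 and 6.26 in the normal samples. It rose 25.8-fold (4.69 ± 0.26, adjusted p = 3.58e-17), with all 5 leukaemic mice far above the normal samples and none apart from the rest. Averaged over the Slc4a8 probe sets, the change was 2.22 (adjusted p = 1.49e-06). Mycn, a MYC-family transcription factor that drives growth, had levels of 12.45, 11.99, 13.16, 11.71 and 11.21 in the MLL-GAS7 mice, against 7.20, 7.87, 6.58 and 7.37 in the normal samples. The Mycn rise of 28.9-fold (4.85 ± 0.37, adjusted p = 4.54e-13) belongs to 1 probe set, whereas a second Mycn probe set that passed the filter went the other way (-1.22, adjusted p = 0.0107), so the direction for the gene depends on the probe set (mean of the Mycn probe sets 1.82).

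Apoc2, an apolipoprotein that activates lipoprotein lipase, had levels of 11.18, 10.12, 13.46, 12.38 and 12.54 in the MLL-GAS7 mice, against 6.45, 8.71, 8.12 and 5.75 in the normal samples. It rose 25.6-fold (adjusted p = 5.56e-09), least in mouse GAS7_406, and normal samples 2 and 3 stood above the other normal samples. Hpgd, which breaks down prostaglandins, stood at 12.90, 12.74, 12.30, 12.39 and 13.74 in the MLL-GAS7 mice, against 8.04, 9.51, 8.89 and 8.75 in the normal samples (16.2-fold, 4.02, adjusted p = 4.03e-08, but 2.65 for the probe set used when those that may cross-react were left out). Penk, the precursor of the enkephalin peptides, reached 12.82, 10.73, 12.54, 11.03 and 10.75 in the MLL-GAS7 mice, against 7.51, 7.08, 7.67 and 8.03 in the normal samples (16-fold, adjusted p = 2.28e-06). In Penk, mice GAS7_405 and GAS7_407 were higher than the other leukaemic mice, and in neither gene did the groups overlap. Structural proteins not usually thought of as blood genes were among the rises. Dsp, the desmosomal plaque protein desmoplakin, rose 15.6-fold (3.96 ± 0.57), and the talin Tln2, which links integrins to actin, rose 8.47-fold (3.08 ± 0.24). Eya1, a phosphatase and coactivator of homeobox factors and a known MLL fusion target, rose 9.2-fold (adjusted p = 0.0013), least in mouse GAS7_407, with 10.76, 10.99, 8.99, 10.36 and 10.78 in the MLL-GAS7 mice, against 7.23, 7.40, 6.80 and 7.27 in the normal samples. Sgip1, an endocytic adaptor (17.5-fold), Tctex1d1, a dynein light chain relative (13.2-fold), Eml5, a microtubule-associated protein (10.6-fold, 3.41, and 2.20 for the mean of its probe sets), Bex6 (8.99-fold) and Klhl41, a kelch protein known from muscle (8.64-fold), completed the list together with Stfa3, a cystatin-type protease inhibitor (9.16-fold, adjusted p = 0.0168). Of these 15 calls, that of Stfa3 was lost within array set 2 (adjusted p = 0.0854), and the others were called under each of the 23 alternative settings.

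**Figure D1:**
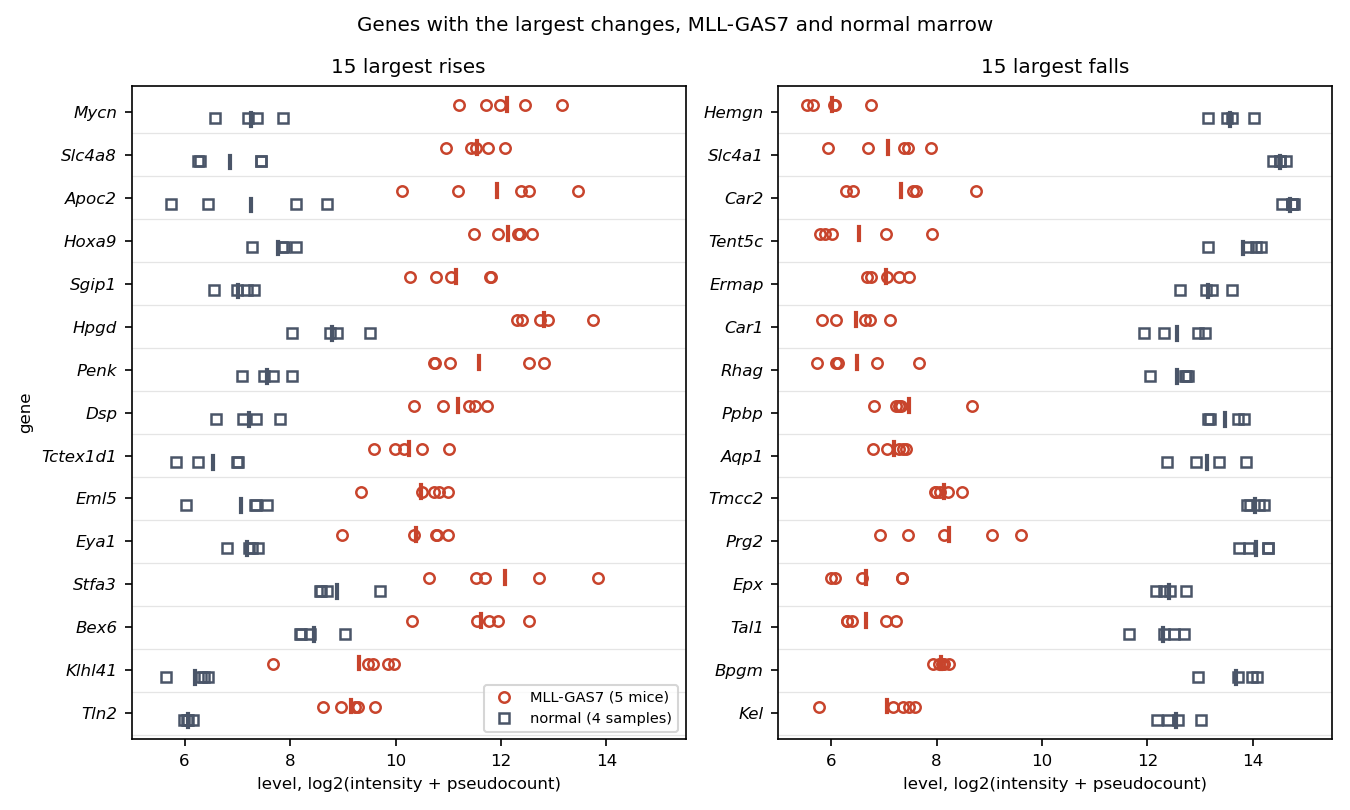
Levels (log2 of intensity plus pseudocount, x axis) of the 15 genes with the largest rises and the 15 with the largest falls, with the 5 MLL-GAS7 mice as red circles, the 4 normal samples as grey squares and short vertical bars at the group means. In each gene every MLL-GAS7 mouse lies beyond every normal sample, as the choice of genes requires, and most of the falling genes sit below 9 in MLL-GAS7 marrow and above 11 in normal marrow.

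Genes known as direct targets of MLL fusions were mostly higher. Of 19 such genes 17 were tested, and 10 rose and 1 fell, with a median change of 1.37 against 0.11 over all genes. Hoxa9, the homeobox gene that holds progenitors in self-renewal, had levels of 12.58, 12.33, 12.36, 11.94 and 11.49 in the MLL-GAS7 mice, against 8.11, 7.89, 7.27 and 7.84 in the normal samples. The groups lay over 3 log2 units apart at their nearest values, and the rise was 20.6-fold (4.36 ± 0.27, adjusted p = 7.78e-16). Meis1, the cofactor that binds DNA with Hoxa9, had levels of 9.01, 9.82, 8.39, 9.19 and 9.57 in the MLL-GAS7 mice, against 7.13, 7.45, 6.14 and 6.26 in the normal samples, a rise of 5.47-fold (2.45 ± 0.31, adjusted p = 1.33e-07), or 1.48 for the mean of its probe sets. Pbx3, another homeobox cofactor, rose 6.03-fold (adjusted p = 2.38e-05), and Mef2c, a MADS-box factor of myeloid and lymphoid progenitors, rose 4.75-fold (adjusted p = 2.62e-05) to a narrow range of 11.92 to 12.56, against 9.71 to 10.32 in normal marrow. Bcl11a, a repressor needed for B cell development, was the member that fell (-1.40 ± 0.51, adjusted p = 0.0382), a call lost in 10 of the 23 alternatives. Among these were leaving out mouse GAS7_407 or GAS7_410 or any normal sample (adjusted p of 0.0593 to 0.112) and leaving out the 5 arrays of brightest hybridisation controls (adjusted p = 0.266), which include mice GAS7_407 and GAS7_410 and normal sample 3.

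Along the HoxA cluster, 8 of 11 genes were tested and 4 rose, with a median change of 1.20. After Hoxa9 came Hoxa10 (2.73 ± 0.37, adjusted p = 3.19e-07), Hoxa3 (1.45 ± 0.26, adjusted p = 5.67e-05, and 0.70 for the mean of its probe sets) and Hoxa5 (1.37 ± 0.37, adjusted p = 0.00564). Hoxa5 was not raised in every mouse: its levels were 9.25, 9.64, 9.39, 8.99 and 6.35 in MLL-GAS7 marrow, against 7.31, 7.25, 7.39 and 7.49 in normal marrow, and mouse GAS7_410 lay below all 4 normal samples. Its call was lost within set 2 (adjusted p = 0.184) and in the fit of the 9 arrays alone (adjusted p = 0.104). Hoxa7 (1.04, adjusted p = 0.0652) and Hoxa13 (0.53, adjusted p = 0.0613) lay above normal in 5 of 5 mice but missed the threshold, Hoxa11 had a change of 0.45 and Hoxa2 of 0.21. Of the motifs read in 8 HoxA promoters, TGATTTAT, a site of HOX and PBX pairs, was in 0 (0.396% of the promoters of tested genes), and TGACAG, a site of MEIS factors, was in 2 (25%, against 17.4%). In the HoxB cluster 0 of 4 tested genes were called by limma, and 0 of them had an unadjusted p under 0.05. Their changes were -0.34 for Hoxb2, -0.25 for Hoxb3, -0.35 for Hoxb4 and -0.55 for Hoxb7, and Hoxb7 was called in 3 alternatives, with adjusted p down to 0.00631 without the 5 bright arrays.

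Neither gene that makes up the fusion rose. Kmt2a had levels of 10.13, 10.06, 9.89, 10.09 and 9.81 in the MLL-GAS7 mice, against 10.03, 10.38, 10.31 and 10.12 in the normal samples (-0.22 ± 0.15, adjusted p = 0.326, but -0.60 with adjusted p = 0.00154 for the mean of its probe sets). Gas7 had levels of 8.38, 9.35, 8.75, 9.05 and 9.24 in the MLL-GAS7 mice, against 9.08, 9.22, 8.19 and 8.67 in the normal samples (0.16 ± 0.42, adjusted p = 0.815). The groups overlapped in both genes. Whether these probe sets read any stretch carried by the virus was not analysed here, so the values do not check the labels. Of 15 genes of MLL, its partners and cofactors, 1 rose and 3 fell (median -0.17). Mllt3, which encodes the partner AF9, fell by 2.02 ± 0.38 (adjusted p = 8.98e-05), and Psip1, the chromatin tether LEDGF, fell by 1.06 ± 0.26 (adjusted p = 0.00188). Mllt10 (AF10, 0.50, adjusted p = 0.0429) and Eps15 (AF1p, -0.62, adjusted p = 0.0277) were called less securely. The Mllt10 call was lost without mouse GAS7_405, GAS7_406 or GAS7_408 or normal sample 1, 3 or 4 (adjusted p up to 0.159) and with the mean of probe sets (adjusted p = 0.366). That of Eps15 was lost without mouse GAS7_406 or GAS7_407 or normal sample 1, 2 or 4 (adjusted p up to 0.105) and within set 2 (adjusted p = 0.278). Menin (Men1) had a change of 0.10 and the H3K79 methyltransferase Dot1l of -0.21.

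GAS7 itself belongs to the F-BAR proteins, and of 13 tested genes of that family 1 rose and 0 fell (median 0.28), while 4 rose with array weights and 2 fell after quantile normalization. The riser was Nostrin, which binds nitric oxide synthase and dynamin, with levels of 8.46, 9.33, 8.24, 8.62 and 8.97 in the MLL-GAS7 mice, against 6.04, 6.70, 7.68 and 5.98 in the normal samples. It rose 4.36-fold (2.13 ± 0.30, adjusted p = 6.94e-07), with 5 of 5 mice above the normal samples. Fnbp1l (Toca-1, which promotes actin assembly, 0.94, adjusted p = 0.0715) and Fer, a tyrosine kinase (-0.75, adjusted p = 0.0587), missed the threshold, and were called in 6 and 3 of the 23 alternatives.

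Red cell genes carried the largest falls in MLL-GAS7 marrow. Of 34 erythroid membrane, globin and regulator genes, 28 had a probe set that names 1 gene, 1 of these lay on chromosome X, and the other 27 all passed the filter on low values. Of these 27, 26 fell and 0 rose, with a median change of -5.11. The exception was Hba-a1, named here after its values were seen: its kept probe set was near the low end of the scale in both groups (7.47 ± 0.81 in MLL-GAS7 marrow and 6.89 ± 0.87 in normal marrow, SD, n = 5 and 4, change 0.58, adjusted p = 0.344). Genes high in normal marrow alone passed the filter through the 4 normal samples and could only fall. With a filter on 9 arrays the list median was -4.17, and over all settings 17 to 26 of its genes fell. On each of the 5 MLL-GAS7 arrays the median of the list lay far below the normal mean, at -4.93, -4.92, -5.44, -4.95 and -5.18, and at 0.32, 0.01, -0.47 and 0.17 on the normal arrays.

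Hemgn, a nuclear protein of erythroid precursors, had levels of 5.65, 6.75, 6.05, 6.08 and 5.54 in the MLL-GAS7 mice, against 14.03, 13.51, 13.14 and 13.61 in the normal samples. It fell by 7.56 ± 0.31 (188-fold, adjusted p = 6.79e-21) and sat near the bottom of the scale in leukaemia, so that its size depends on the pseudocount: -8.80 with a pseudocount of 10 and -6.71 with 100. Slc4a1 (band 3), the anion exchanger and most abundant membrane protein of the red cell, had levels of 6.71, 7.45, 7.38, 5.95 and 7.89 in the MLL-GAS7 mice, against 14.51, 14.52, 14.38 and 14.63 in the normal samples (-7.43 ± 0.39, adjusted p = 1.23e-17). Carbonic anhydrase Car2 had levels of 6.28, 7.56, 8.74, 7.61 and 6.41 in the MLL-GAS7 mice, against 14.75, 14.77, 14.55 and 14.75 in the normal samples (-7.39 ± 0.42, adjusted p = 1.09e-16). Mouse GAS7_407 had the highest Car2 level of the leukaemic mice, and the groups of all 3 genes were several log2 units apart. Regulators of the lineage fell too. Tal1, the bHLH factor that starts the erythroid programme, had levels of 6.40, 6.30, 7.05, 7.23 and 6.30 in the MLL-GAS7 mice, against 12.69, 12.32, 11.65 and 12.50 in the normal samples (-5.63 ± 0.35, adjusted p = 1.59e-15), and Epor, the erythropoietin receptor, fell by 2.94 ± 0.23 (adjusted p = 8.75e-13).

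Blood group and membrane genes followed: Ermap (Scianna, -6.09), Rhag (-6.06), Aqp1 (Colton water channel, -5.94) and Kel (Kell protease, -5.47) each fell with adjusted p of at most 3.58e-14. Bpgm, which makes the 2,3-bisphosphoglycerate that lowers oxygen affinity, fell by 5.59 ± 0.22 to a range of 7.93 to 8.24 in MLL-GAS7 marrow, against 12.95 to 14.08 in normal marrow. Tent5c (a poly(A) polymerase, -7.29), Car1 (-6.09) and Tmcc2 (-5.90) were the other falls of this size. In haem synthesis and iron handling, 16 of 19 genes were tested (1 lies on chromosome X), 14 fell and 1 rose (median -2.17). The mitochondrial iron importer Slc25a37 (mitoferrin 1) fell (-4.49 ± 0.28), as did the pathway enzymes Cpox (-4.04 ± 0.21), Fech (-3.40 ± 0.21) and Alad (-3.21 ± 0.26). The riser was Alas1, the housekeeping form of the first enzyme (1.04 ± 0.31, adjusted p = 0.0109, and 0.0556 without normal sample 4).

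The promoters of these genes were read for the GATA motif, the letters bound by the erythroid factor GATA1, in the window from 250 bases before to 50 bases after each gene's start in RefSeq (GRCm38.p6). Where a gene had several windows only the first listed was read, and Tal1 had 2. AGATAA, searched on both strands, was in 7 of the 21 erythroid promoters in the table (33.3%), namely those of Epb42, Rhd, Hemgn, Epor, Tal1, Kel and Trim10, against 6.75% of the 10363 tested genes with a promoter there and 11.4% of all 27025 promoters. The share was not particular to red cell genes, being 38.5% in the megakaryocyte and platelet list (5 of 13), 33.3% both in the eosinophil, basophil and mast cell list (3 of 9) and in the MHC class II list (2 of 6), and 26.7% in the interferon-stimulated list (4 of 15). The CACC motif CCNCNCCC, bound by KLF factors and frequent everywhere, was in 61.9% of the erythroid promoters and 67.3% of those of the tested genes. A match describes letters and not binding. The 3 promoters of the largest falls that hold AGATAA are shown 5′ to 3′ in the gene's direction with the motif in capitals. They are Hemgn (chr4:46404134-46404433, minus strand), Tal1 (chr4:115056176-115056475, plus strand) and Kel (chr6:41704276-41704575, minus strand). The motif begins at base 29 after the start in Hemgn, 205 bases before it in Tal1, where it is read on the opposite strand as TTATCT, and 56 bases before it in Kel.
Hemgn: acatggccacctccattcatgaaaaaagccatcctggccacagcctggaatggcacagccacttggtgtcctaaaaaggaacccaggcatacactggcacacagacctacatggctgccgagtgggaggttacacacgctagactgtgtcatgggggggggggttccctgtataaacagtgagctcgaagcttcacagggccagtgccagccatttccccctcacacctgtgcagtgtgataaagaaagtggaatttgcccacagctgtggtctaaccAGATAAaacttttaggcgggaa
Tal1: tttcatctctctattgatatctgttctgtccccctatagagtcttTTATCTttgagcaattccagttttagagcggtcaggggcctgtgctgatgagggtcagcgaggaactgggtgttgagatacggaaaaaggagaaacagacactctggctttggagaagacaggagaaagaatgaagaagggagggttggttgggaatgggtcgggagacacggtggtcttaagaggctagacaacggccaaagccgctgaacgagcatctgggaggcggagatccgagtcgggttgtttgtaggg
Kel: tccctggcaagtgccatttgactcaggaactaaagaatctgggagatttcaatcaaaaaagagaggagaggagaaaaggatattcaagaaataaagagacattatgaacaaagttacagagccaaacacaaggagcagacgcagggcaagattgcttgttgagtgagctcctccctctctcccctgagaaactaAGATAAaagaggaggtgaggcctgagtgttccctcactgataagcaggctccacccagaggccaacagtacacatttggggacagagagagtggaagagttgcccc

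Platelet genes fell alongside the red cell genes. Of 18 megakaryocyte and platelet genes tested (of 20), 14 fell and 0 rose, with a median of -1.71. Ppbp, the most abundant platelet chemokine, had levels of 7.28, 7.24, 8.68, 7.32 and 6.81 in the MLL-GAS7 mice, against 13.71, 13.83, 13.18 and 13.15 in the normal samples (64-fold lower, adjusted p = 3.84e-17). Pf4 (platelet factor 4) fell 20.8-fold, the platelet tubulin Tubb1 9.31-fold, the podoplanin receptor Clec1b 7.91-fold, the von Willebrand receptor subunit Gp9 7.55-fold and Vwf 8.88-fold. Eosinophil, basophil and mast cell genes were lower in 8 of 11 tested (of 15) and higher in 0, with a median of -2.92. The eosinophil granule proteins led: Prg2 (major basic protein) had levels of 9.61, 9.05, 6.92, 7.45 and 8.15 in the MLL-GAS7 mice, against 13.73, 14.28, 14.28 and 13.92 in the normal samples (56.3-fold lower, adjusted p = 4.27e-06), and Epx (eosinophil peroxidase) fell 53.5-fold (adjusted p = 3.49e-13). The basophil protease Mcpt8 fell 8.1-fold, and the alpha and beta chains of the IgE receptor fell, Fcer1a 4.48-fold and Ms4a2 4.29-fold. Cpa3, the mast cell carboxypeptidase, had the widest spread of these 11 genes among the leukaemic mice. Its levels were 11.21, 12.38, 6.45, 8.70 and 10.99 in the MLL-GAS7 mice, 3 of them above and 2 below all normal samples, against 9.16, 9.63, 10.02 and 9.77 in the normal samples (change 0.30, adjusted p = 0.835).

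B cell genes were lower in 17 of 22 tested (of 24) and higher in 1, with a median of -1.91. Cd79a, a signalling chain of the B cell receptor, had levels of 7.85, 7.76, 9.80, 8.62 and 8.50 in the MLL-GAS7 mice, against 12.14, 12.36, 11.50 and 12.21 in the normal samples. It fell 11.6-fold (adjusted p = 1.82e-09), without overlap. The list median was -1.38 in mouse GAS7_407 and -2.30 to -2.06 in the other 4 leukaemic mice, and -0.60 in normal sample 3 and 0.19 to 0.22 in the other 3 normal samples. Rag1, the recombinase of antigen receptor genes, had levels of 6.46, 5.76, 7.35, 6.50 and 7.22 in the MLL-GAS7 mice, against 10.74, 11.04, 9.96 and 10.77 in the normal samples (15.7-fold lower, adjusted p = 1.31e-13). The adaptor Blnk and the coactivator Pou2af1 each fell 13.3-fold, the surrogate light chain Igll1 9.52-fold and the terminal transferase Dntt, which adds bases at antigen receptor joins, 8.46-fold. Btla, an inhibitory receptor shared with T and myeloid cells, was the riser (1.01, adjusted p = 0.0293, lost without mouse GAS7_407 or GAS7_408 or normal sample 1 or 3, with adjusted p up to 0.119). The octamer ATGCAAAT, bound by the partners of Pou2af1, was in 2 of 18 B cell promoters (11.1%), those of Vpreb3 and Blnk, against 1.4% of the promoters of tested genes. Similar shares, each from 1 promoter, were found for stroma, bone and endothelium genes (11.1%), p53 targets (10%) and F-BAR genes (9.09%).

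Among 21 lymphoid progenitor regulators tested (of 24), 9 fell and 4 rose (median -0.72). The interleukin-7 receptor Il7r fell 4.67-fold, Ets1 7.8-fold and the Ikaros family member Ikzf3 3.02-fold. Its relative Ikzf2 (Helios) went the other way, with levels of 12.12, 12.28, 10.46, 12.22 and 11.19 in the MLL-GAS7 mice, against 9.08, 9.55, 8.50 and 9.12 in the normal samples (6.02-fold higher, adjusted p = 0.0094), and the activation marker Cd69 rose 2.63-fold. Of 16 genes of T and NK cells tested (of 23), 5 fell and 0 rose (median -0.54). Cd3d, a chain of the T cell receptor complex, ranged over 5.80 to 8.10 in MLL-GAS7 marrow, against 7.62 to 11.25 in normal marrow (adjusted p = 3.35e-05), and the NK granule protein Nkg7 fell 3.74-fold (adjusted p = 0.00214).

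Granule genes of early and of late myeloid cells were counted apart. Of 11 primary granule genes tested (of 12), which promyelocytes express, 3 rose and 1 fell (median 0.33). Plac8 rose 2.47-fold to 14.66 to 15.62 in MLL-GAS7 marrow, against 13.51 to 14.23 in normal marrow (adjusted p = 1.41e-07), and proteinase 3 (Prtn3) rose 1.88-fold (0.91, adjusted p = 0.000951, and 0.56 after quantile normalization). Myeloperoxidase (Mpo), at 14.61, 14.33, 14.77, 14.23 and 14.19 in the MLL-GAS7 mice and 14.33, 14.73, 15.21 and 14.87 in the normal samples, was among the brightest genes in both groups and was not called (-0.36 ± 0.24, adjusted p = 0.29, but 0.0136 for a change of -0.71 after quantile normalization). Elastase (Elane, 0.29) and cathepsin G (Ctsg, 0.00) were not called either. Ms4a3, a marker of granulocyte and monocyte progenitors, fell: its levels were 11.04, 9.40, 10.26, 10.68 and 10.92 in the MLL-GAS7 mice, against 12.05, 12.23, 12.91 and 11.94 in the normal samples (3.54-fold lower, adjusted p = 0.00045).

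Of 21 late neutrophil genes tested (of 25), 10 fell, 0 rose and 11 were not called (median -0.75). Among the 11 were S100a8 (-0.03), S100a9 (0.12) and Ngp (-0.13). Olfm4 was higher without a call (1.63, adjusted p = 0.0738), and in 1 gene of the list all 5 mice lay above all normal samples. The number that fell was 3 without normal sample 3, 5 without normal sample 2 or mouse GAS7_406, and 4 within set 2. Il1b, an inflammatory cytokine of mature myeloid cells, fell 4.19-fold (adjusted p = 8.85e-06) and the chemokine receptor Cxcr2 4.43-fold (adjusted p = 0.0142). The gelatinase Mmp9 had levels of 11.51, 10.49, 12.61, 10.07 and 12.14 in the MLL-GAS7 mice, against 13.05, 13.88, 14.30 and 13.80 in the normal samples (-2.39 ± 0.77, adjusted p = 0.0187). Its call, like those of the collagenase Mmp8 (-1.71) and the surface protein Cd177 (-1.81), was lost in 3 to 5 alternatives, with adjusted p within set 2 of 0.0519 for Mmp9, 0.129 for Mmp8 and 0.153 for Cd177. Single arrays decided these calls: without normal sample 3 the adjusted p was 0.0547, 0.0633 and 0.0532 for the 3 genes, without mouse GAS7_408 it was 0.0582 for Mmp9, without mouse GAS7_406 it was 0.12 for Mmp8 and 0.0604 for Cd177, and without normal sample 2 it was 0.0527 for Mmp8. The fall was uneven among mice: the list median lay at -0.53, -1.49, -0.29, -1.50 and -0.41 on the MLL-GAS7 arrays, with mice GAS7_406 and GAS7_408 the lowest, and at -0.35, 0.04, 0.38 and -0.13 on the normal arrays. The G-CSF receptor Csf3r fell 2.62-fold (adjusted p = 0.00915).

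Monocyte genes were higher in 9 of 21 tested and lower in 0, with a median of 0.81, though 2 were lower without mouse GAS7_407 or normal sample 4. The other 12 were not called, among them Vcan (-1.80, adjusted p = 0.0526), Fcgr1 (-0.18) and Cd14 (-0.07). Csf1r, the receptor for the monocyte growth factor M-CSF, had levels of 13.94, 13.34, 14.04, 14.07 and 14.88 in the MLL-GAS7 mice, against 12.20, 12.64, 12.70 and 12.19 in the normal samples (3.07-fold higher, adjusted p = 7.26e-06). The fractalkine receptor Cx3cr1 rose 4.55-fold, with 11.25, 10.51, 10.73, 11.74 and 12.17 in the MLL-GAS7 mice, against 8.86, 9.41, 8.94 and 9.17 in the normal samples (adjusted p = 8.26e-05). Ly86 (MD-1, 4.45-fold), Ms4a6c (4.45-fold, 2.15, and 1.18 for the mean of its probe sets), Cd68, a lysosomal membrane protein (3.05-fold), and the pore-forming Mpeg1 (2.64-fold) rose with them. Mice GAS7_408 and GAS7_410 had the highest list medians, 0.64, 0.48, 0.81, 1.30 and 1.53 over the 5 mice in order, against -0.23, 0.27, 0.39 and -0.32 in the normal samples. Resident macrophage genes fell in 9 of 14 tested (of 16) and rose in 0 (median -1.98). The complement gene C1qa had levels of 9.11, 6.09, 7.74, 6.39 and 7.45 in the MLL-GAS7 mice, against 11.57, 11.45, 9.74 and 10.37 in the normal samples (10.7-fold lower, adjusted p = 6.06e-07), the scavenger protein Cd5l fell 8.03-fold and the mannose receptor Mrc1 7.32-fold. Normal samples 3 and 4 were low for this list (medians of -0.92 and -0.36) where samples 1 and 2 were high (0.70 and 0.55), and the leukaemic mice ran from -2.21 to -1.49. Apoe, at 10.01 to 13.09 in MLL-GAS7 marrow and 10.30 to 11.72 in normal marrow, was not called (0.70, adjusted p = 0.413).

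**Figure D2:**
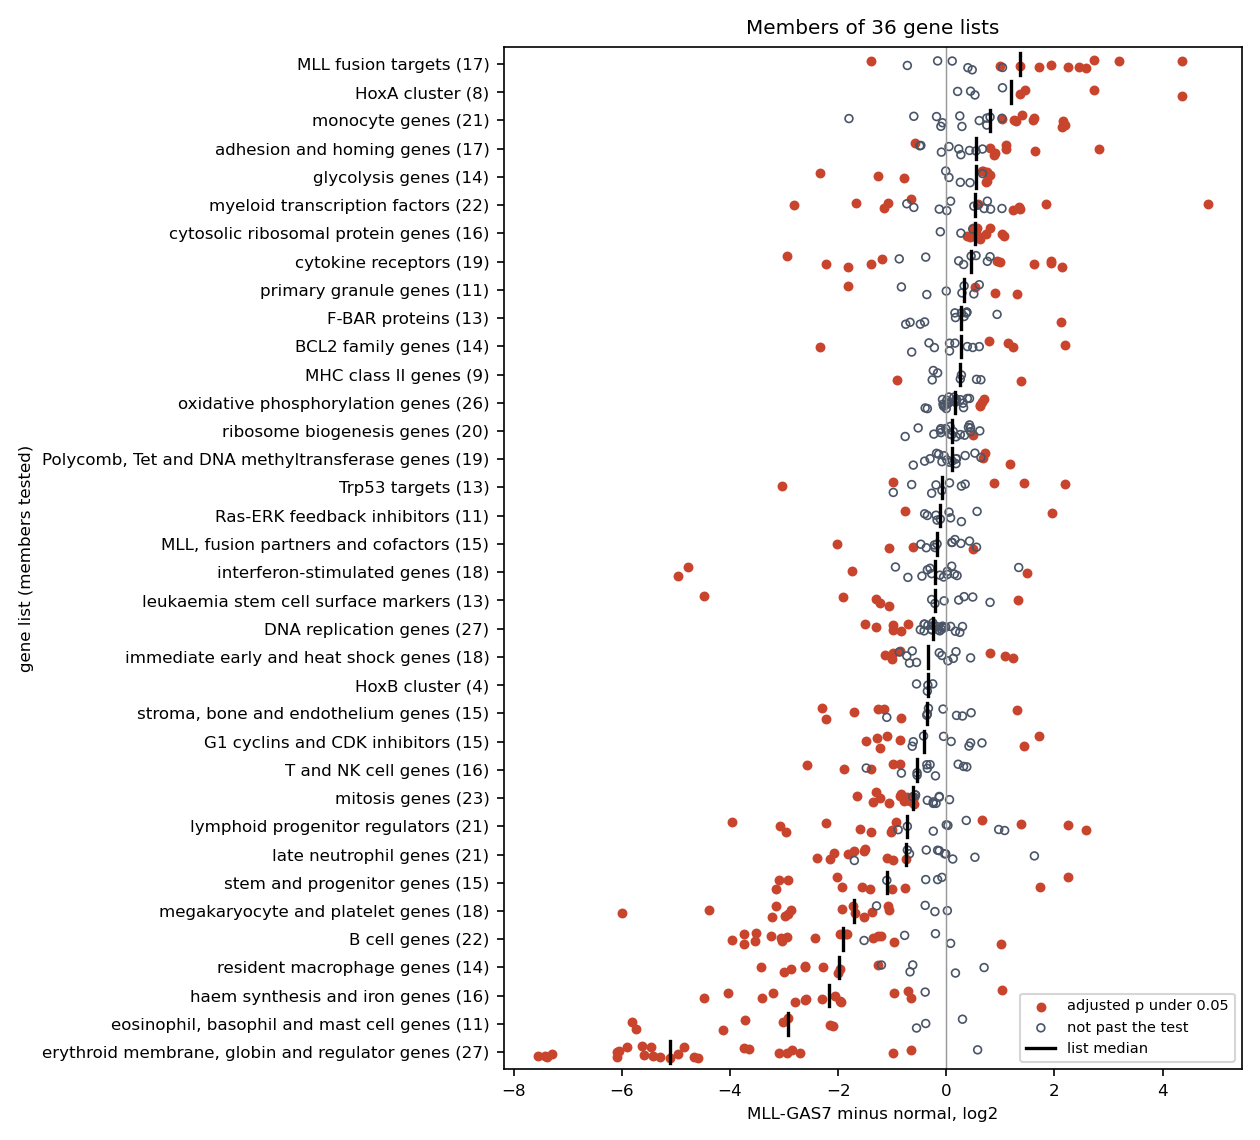
Change between MLL-GAS7 and normal marrow (log2, x axis) of each tested member of 36 gene lists, ordered by list median (black bars), with members past an adjusted p of 0.05 as filled red points and the others as open points. The erythroid list lies farthest to the left with a median of -5.11 and the MLL fusion targets farthest to the right with a median of 1.37.

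Transcription factors of the myeloid lineage moved in both directions. Of 22 tested (of 25) 6 rose and 5 fell (median 0.54), with 3 falls without normal sample 1. Besides Mycn, the monocyte factors Irf8 (2.53-fold, adjusted p = 0.00451) and Irf5 (3.57-fold, 1.84, adjusted p = 0.000139, and 0.83 for the mean of its probe sets) and the granulocyte and monocyte commitment factor Cebpa (2.36-fold, adjusted p = 0.00175) rose. Irf8 had levels of 13.03, 13.19, 12.54, 13.44 and 13.43 in the MLL-GAS7 mice, against 11.93, 12.01, 11.53 and 11.67 in the normal samples, without overlap. Mxd1, a MYC antagonist of late granulocytes, fell 7.04-fold (adjusted p = 9.82e-08) and Nfe2, a factor of platelets and red cells, 1.57-fold.

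Genes of stem cells were mostly lower. Of 15 stem and progenitor genes tested (of 20), 9 fell and 2 rose (median -1.10). Gfi1b (-3.10), Pdzk1ip1 (-2.93), Prom1 (-1.93), endoglin (Eng, -1.55), Slamf1 (-1.01) and Hlf (-0.77), all known from stem or early progenitor cells, fell, and Kit (-0.38, adjusted p = 0.514), Gata2 (-0.08) and Mecom (-0.16) were not called. Several of these, among them Gfi1b, Vwf and Pdzk1ip1, are also expressed by platelet or red cell precursors, whose genes fell too. Cd34, the progenitor sialomucin, rose 4.78-fold (adjusted p = 0.00425) with a wide spread: its levels were 11.79, 12.98, 8.80, 11.40 and 11.75 in the MLL-GAS7 mice, against 9.09, 9.43, 8.99 and 8.83 in the normal samples, and mouse GAS7_407 stood at the level of normal marrow while the other 4 lay above all normal samples. Cd48, which marks progenitors rather than stem cells, rose 3.33-fold (adjusted p = 2.28e-05). Of 13 surface markers reported on leukaemia stem cells, 1 rose and 5 fell (median -0.21), with 3 rises without normal sample 1. The riser was Cd93 (1.33, adjusted p = 0.00513, and 0.0971 in the fit of the 9 arrays alone). Cd36, a fatty acid receptor also carried by red cell and platelet precursors, fell 22.3-fold and the tetraspanin Cd9 3.76-fold. Cd47 (0.33), Cd44 (0.23) and Cd33 (-0.21) were not called.

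Cytokine receptors moved in both directions, with 6 of 19 tested higher and 5 lower (median 0.46). Ifngr1, the interferon gamma receptor, had levels of 12.65, 12.49, 12.53, 12.83 and 12.84 in the MLL-GAS7 mice, against 10.11, 10.85, 11.17 and 10.82 in the normal samples (3.81-fold, adjusted p = 2.35e-08). The interleukin-6 receptor Il6ra rose 4.43-fold (adjusted p = 0.000272) and Csf2rb2, a beta chain for interleukin-3, 1.91-fold (adjusted p = 0.00119). Flt3, a receptor tyrosine kinase of early progenitors and a known MLL fusion target, had the widest spread of the 19 among leukaemic mice: its levels were 11.15, 11.99, 7.98, 12.78 and 10.57 in the MLL-GAS7 mice, against 8.90, 8.98, 9.05 and 8.95 in the normal samples. Mouse GAS7_407 lay below all normal samples and the other 4 above all of them, highest in mouse GAS7_408, and the call (1.93 ± 0.60, adjusted p = 0.0149) was lost without mouse GAS7_408 (adjusted p = 0.0698) or GAS7_406 (adjusted p = 0.0511). Among 17 adhesion and homing genes (of 20) 7 rose and 1 fell (median 0.55). Itga1, the collagen-binding integrin alpha 1, rose 7.13-fold, with 10.66, 10.94, 8.91, 10.15 and 11.34 in the MLL-GAS7 mice, against 7.10, 7.60, 8.09 and 7.47 in the normal samples (adjusted p = 2.47e-06). The gut-homing integrin chain Itgb7 rose 3.12-fold, leukosialin (Spn) 2.15-fold and the marrow-retention receptor Cxcr4 1.85-fold, the last to 13.43 to 14.13 in MLL-GAS7 marrow, against 12.66 to 13.18 in normal marrow. Its ligand Cxcl12, made by marrow stroma, fell 4.94-fold (-2.30, adjusted p = 0.00026, and -1.53 for the mean of its probe sets), at 9.43, 8.22, 11.48, 9.50 and 8.52 in the MLL-GAS7 mice, against 11.89, 11.99, 11.61 and 11.46 in the normal samples. Of 15 stroma, bone and endothelium genes (of 19) 6 fell and 1 rose, the fat hormone Adipoq falling 4.67-fold and the collagen Col1a2 2.24-fold.

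**Figure D3:**
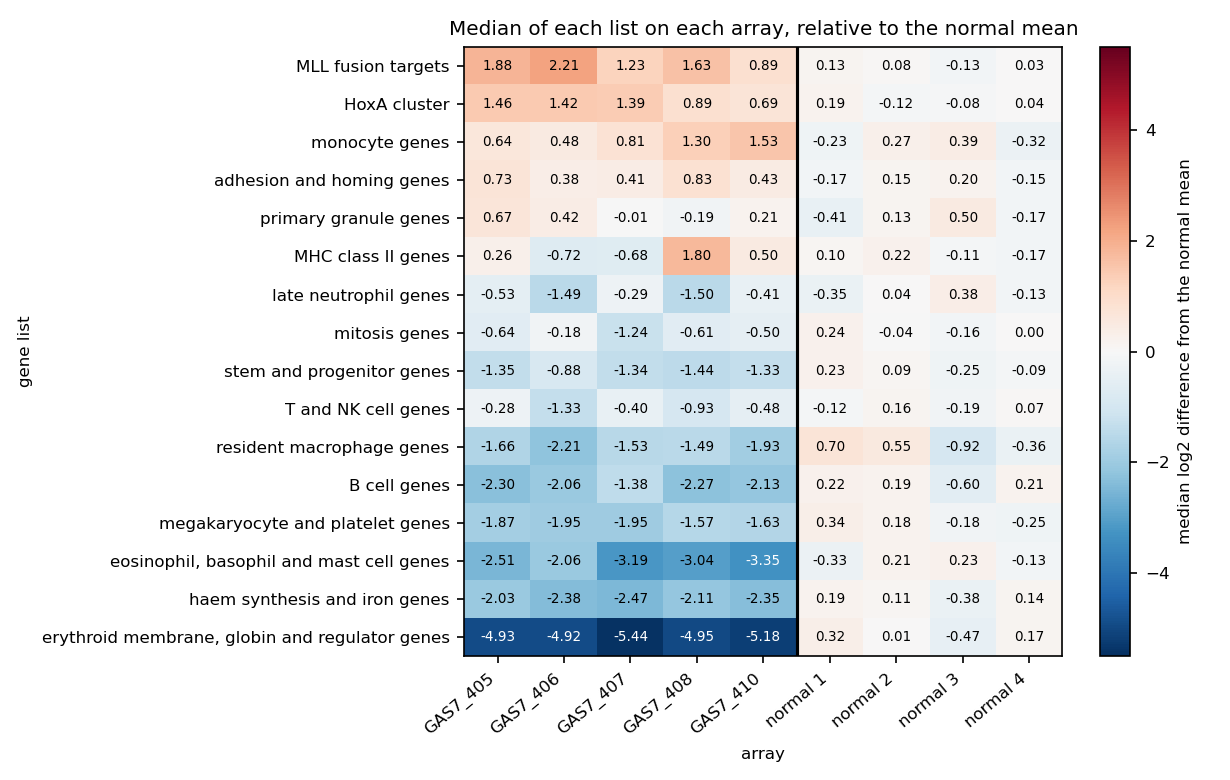
Median of 16 gene lists on each of the 9 arrays as a log2 difference from the mean of the normal samples (colour and printed value), with the 5 MLL-GAS7 mice left of the black line and the 4 normal samples right of it. The erythroid list runs from -5.44 to -4.92 on the MLL-GAS7 arrays, whereas the MHC class II list runs from -0.72 in mouse GAS7_406 to 1.80 in mouse GAS7_408.

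Cell cycle genes were lower rather than higher in the leukaemic marrow. Of 23 mitosis genes tested (of 24) 13 fell and 0 rose (median -0.62). Ube2c, which feeds the anaphase-promoting complex, had levels of 11.79, 12.40, 10.91, 11.67 and 12.18 in the MLL-GAS7 mice, against 13.80, 13.15, 13.27 and 13.60 in the normal samples (3.17-fold lower, adjusted p = 1.19e-06). The spindle protein Nusap1 fell 2.55-fold (-1.35, and -0.89 for the mean of its probe sets), cyclin A2 (Ccna2) 2.46-fold and survivin (Birc5) 2.32-fold. The list median was lowest in mouse GAS7_407, at -0.64, -0.18, -1.24, -0.61 and -0.50 over the 5 mice in order, against 0.24, -0.04, -0.16 and 0.00 in the normal samples. Of 27 DNA replication genes (of 29) 6 fell and 0 rose (median -0.25, with 10 falls on the unshifted scale and after quantile normalization and 3 in the fit of the 9 arrays alone), with the ribonucleotide reductase subunit Rrm2 down 2.84-fold (adjusted p = 7.68e-09) and the licensing factor Cdc6 down 2.47-fold. Among 15 G1 cyclins, kinases and inhibitors tested (of 17) 2 rose and 5 fell. Cdk6, the kinase that opposes myeloid differentiation and an MLL fusion target, had levels of 13.56, 13.89, 13.35, 13.40 and 12.79 in the MLL-GAS7 mice, against 11.86, 11.60, 11.73 and 11.53 in the normal samples (3.29-fold higher, adjusted p = 2.35e-08). The inhibitor Cdkn1a (p21), a p53 target, rose 2.7-fold (adjusted p = 2.65e-05), while cyclin E1 (Ccne1) fell 2.8-fold, the retinoblastoma gene Rb1 2.43-fold and the p19 inhibitor Cdkn2d 2.35-fold.

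Of 13 p53 targets tested (of 15) 3 rose and 2 fell (median -0.08). Pmaip1 (Noxa), a BH3-only death protein, had levels of 9.84, 10.64, 9.44, 10.86 and 8.77 in the MLL-GAS7 mice, against 7.62, 7.95, 7.70 and 7.62 in the normal samples (4.56-fold higher, adjusted p = 5.9e-06), whereas Gadd45a fell 8.22-fold (adjusted p = 3.93e-07). Mdm2, a sensitive p53 target, had a change of -0.19 (adjusted p = 0.518). In the BCL2 family, 14 of 17 genes were tested, 4 rose and 1 fell (median 0.27). Bcl2 rose 2.35-fold (1.23 ± 0.32, adjusted p = 0.00303), with 10.39, 10.96, 9.39, 10.23 and 10.10 in the MLL-GAS7 mice, against 9.12, 9.10, 8.85 and 8.82 in the normal samples. Bcl2l1 (Bcl-xL), the survival protein of late red cell precursors, fell 5.06-fold (adjusted p = 2.19e-11), and Bid rose 2.21-fold (adjusted p = 0.000113). Mcl1, at 12.96 ± 0.11 in MLL-GAS7 and 12.90 ± 0.44 in normal marrow (SD, n = 5 and 4), had a change of 0.06.

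Biosynthetic and metabolic lists differed among themselves. Cytosolic ribosomal protein genes rose in 13 of 16 tested (of 23) and fell in 0, led by Rps19 (2.08-fold) and Rpl11 (2.06-fold). Their count and median depended on the processing: 5 rose after quantile normalization, where the median of 0.53 became 0.08, 5 rose in the fit of the 9 arrays alone, 7 within set 2, 8 without the 5 bright arrays, and 8 of 14 without probe sets that may cross-react. Ribosome biogenesis genes rose in 1 of 20 (4 without mouse GAS7_407) and oxidative phosphorylation genes in 4 of 26 tested (of 31), with 0 lower in both lists, near or under the share of all genes. Glycolysis genes rose in 6 and fell in 3 of 14 (of 18), but rose in 3 without normal sample 1 or normal sample 4 and in 1 in the fit of the 9 arrays alone. Triosephosphate isomerase Tpi1 rose 1.76-fold (adjusted p = 0.000708), whereas the first enzyme Hk1 fell 2.39-fold (adjusted p = 4.59e-07) and the glucose transporter Slc2a3 5.08-fold (adjusted p = 0.00346). Of 19 Polycomb, Tet and DNA methyltransferase genes (of 20) 3 rose and 0 fell (5 and 2 after quantile normalization), with Tet2, which oxidises methylcytosine, up 2.26-fold (adjusted p = 1.84e-05).

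Stress and signalling lists held a few large changes among many small ones. Of 18 interferon-stimulated genes (of 23) 1 rose and 3 fell (median -0.20). Isg20, an exonuclease, had levels of 8.62, 8.05, 7.82, 7.82 and 8.00 in the MLL-GAS7 mice, against 13.31, 13.04, 12.46 and 13.34 in the normal samples, and Rsad2 (viperin) had 8.84, 8.35, 8.46, 8.27 and 9.58 in the MLL-GAS7 mice, against 13.72, 13.95, 12.82 and 13.43 in the normal samples. The falls, without overlap, were 31.4-fold (adjusted p = 1.23e-15) and 27.4-fold (adjusted p = 6.67e-13), while Mx1, a GTPase of the same response, rose 2.82-fold (adjusted p = 0.00198). Among the immediate early and heat shock genes, 18 of 19 were tested, 3 rose and 4 fell (median -0.34; 1 rise without normal sample 4 and 2 falls without normal sample 2), and of 11 inhibitors of Ras and ERK signalling (of 13) 1 rose and 1 fell (median -0.11). The heat shock cochaperone Dnajb1 fell 2.02-fold (adjusted p = 0.000322), and the ERK phosphatase Dusp7 rose 3.88-fold, with 10.72, 10.70, 10.19, 10.45 and 11.02 in the MLL-GAS7 mice, against 8.39, 9.05, 8.93 and 8.28 in the normal samples (adjusted p = 3.9e-07).

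MLL-GAS7 marrow was then set against the mean of the MLL-AF1p, MLL-AF10, MLL-AF9 and MLL-ENL cohorts, a contrast in which the normal samples cancel out. Sex-linked genes differed between these cohorts too: 4 of the 5 MLL-AF9 mice had Xist levels of 8.74 to 10.66 and Eif2s3y levels of 10.20 to 10.73, and the fifth had 14.67 and 8.76, whereas all mice of the other leukaemia cohorts had Xist levels of 14.16 or more and Eif2s3y levels of 6.99 or less. Without the MLL-AF9 cohort, an alternative chosen after seeing the data, 706 genes differed (203 higher, 503 lower), and each named gene called against the other cohorts was still called. Here 615 of 12851 genes differed (4.79%), 154 higher (1.2%) and 461 lower (3.59%), with a median change of -0.08. Of the calls 25% were higher, a share that moved to 44.7% on the unshifted scale and to 42.0% under quantile normalization. Both contrasts called 235 genes. The count of calls also hung on single arrays, with 304 genes without mouse GAS7_410, 368 without mouse GAS7_408, 411 without mouse GAS7_407, 500 without mouse GAS7_405 and 1092 without mouse GAS7_406. It was 238 without the 5 arrays of brightest hybridisation controls, 273 within set 2 and 48 within set 1, where MLL-GAS7 has 2 mice.

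Class II MHC genes, which present antigen to CD4 T cells, were higher in MLL-GAS7 than in the other cohorts in 7 of 9 tested (of 10) and lower in 0, with a median of 1.27. H2-Aa, a class II alpha chain, had levels of 12.83, 11.21, 12.19, 14.41 and 13.54 in the MLL-GAS7 mice. In the other cohorts it ranged over 8.57 to 10.57, with a median of 9.86 in MLL-AF1p, 9.01 to 11.79, with a median of 9.99 in MLL-AF10, 9.00 to 12.46, with a median of 9.43 in MLL-AF9 and 8.53 to 9.77, with a median of 8.70 in MLL-ENL, and the normal samples had 12.67, 12.79, 12.43 and 12.40. Of the 29 mice of the other cohorts, 26 lay below the lowest MLL-GAS7 mouse and 0 above the highest. The difference was 3.01 ± 0.41 (8.04-fold, adjusted p = 2.22e-05), while against normal marrow it was 0.26 ± 0.57 (adjusted p = 0.783). Cd74, the invariant chain that guards the class II groove, was higher than in the other cohorts by 2.83 ± 0.42 (adjusted p = 6.97e-05), H2-Eb1 by 2.49 ± 0.36 (adjusted p = 5.42e-05), H2-Ab1 by 1.77 ± 0.29 (adjusted p = 0.000306) and H2-Oa, a chain that tempers peptide loading, by 1.27 ± 0.25 (adjusted p = 0.00186). Within array set 1, which holds mice GAS7_406 and GAS7_407, the differences were smaller and not called, at 1.92 for H2-Aa (adjusted p = 0.134), 1.70 for Cd74, 1.23 for H2-Eb1 and 0.75 for H2-Ab1. The master regulator Ciita differed by 0.72 (adjusted p = 0.0236, lost without mouse GAS7_405, GAS7_408 or GAS7_410 with adjusted p up to 0.227, and 0.39 without GAS7_408), and H2-DMa, which loads peptides, by 0.11 (adjusted p = 0.846). The mice were far apart. The list median against the normal mean was 0.26, -0.72, -0.68, 1.80 and 0.50 in the 5 MLL-GAS7 mice in order, and 0.10, 0.22, -0.11 and -0.17 in the normal samples. Mice GAS7_405, GAS7_408 and GAS7_410 lay above every normal sample, GAS7_408 by the most, and mice GAS7_406 and GAS7_407 below every one. Against normal marrow 1 class II gene rose (H2-DMa, 1.38, adjusted p = 0.00111) and 1 fell (H2-Ob, -0.92, adjusted p = 0.0258, lost without mouse GAS7_407 or GAS7_410 or normal sample 1, 2 or 4, with adjusted p up to 0.104). B cells express class II genes too, and of 22 B cell genes 3 were higher than in the other cohorts and 0 lower. The 3, of which the first 2 are named after their values were seen, were Cd22 (1.36, adjusted p = 0.00191), Cd72 (0.91, adjusted p = 0.0167) and Spib (0.82, adjusted p = 0.0205), and the median of the list was 0.30. The calls of Cd72 and Spib were lost without mouse GAS7_407 or GAS7_408 (adjusted p up to 0.0646 for Cd72 and 0.164 for Spib). Of 16 T and NK cell genes 3 were also higher than in the other cohorts and 0 lower (median 0.13). The part of B cell genes in the class II difference was not tested.

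The letters CTGATTGG, the core of the Y box bound by NF-Y in class II promoters, were chosen as a search after the values had been seen. They were in 3 of the 6 class II promoters in the table (50%), against 5.74% of the promoters of tested genes and 4.31% of all promoters. Other lists held them often too, with 27.8% of Polycomb, Tet and DNA methyltransferase promoters (5 of 18), 26.3% of mitosis promoters (5 of 19) and 20% of p53 target promoters (2 of 10). The 3 class II promoters are shown with those letters in capitals, read in the gene's direction: H2-Aa (chr17:34287774-34288073, minus strand), H2-Eb1 (chr17:34305617-34305916, plus strand) and H2-Oa (chr17:34092129-34092428, plus strand), all RefSeq on GRCm38.p6. The motif begins 51, 62 and 46 bases before the start of H2-Aa, H2-Eb1 and H2-Oa.
H2-Aa: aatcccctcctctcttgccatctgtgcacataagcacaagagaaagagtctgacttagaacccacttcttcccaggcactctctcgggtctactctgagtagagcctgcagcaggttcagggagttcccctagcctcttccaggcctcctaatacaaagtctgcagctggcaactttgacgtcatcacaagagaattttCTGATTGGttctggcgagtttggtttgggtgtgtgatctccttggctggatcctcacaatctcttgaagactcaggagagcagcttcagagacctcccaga
H2-Eb1: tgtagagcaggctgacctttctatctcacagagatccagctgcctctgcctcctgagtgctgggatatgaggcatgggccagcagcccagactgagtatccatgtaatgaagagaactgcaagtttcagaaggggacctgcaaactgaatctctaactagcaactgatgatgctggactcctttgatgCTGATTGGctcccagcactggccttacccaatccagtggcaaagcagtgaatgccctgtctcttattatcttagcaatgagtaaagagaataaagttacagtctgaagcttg
H2-Oa: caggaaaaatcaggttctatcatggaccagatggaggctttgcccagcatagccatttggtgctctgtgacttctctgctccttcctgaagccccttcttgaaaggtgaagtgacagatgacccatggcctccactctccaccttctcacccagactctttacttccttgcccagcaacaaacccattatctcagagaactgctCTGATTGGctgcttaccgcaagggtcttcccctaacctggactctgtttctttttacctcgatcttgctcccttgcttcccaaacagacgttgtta

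Outside the class II list, Satb1, Epb41l4b, Aff3 and Upb1 were among the 8 largest differences above the companion cohorts. Of 21 lymphoid progenitor regulators 2 were higher than there (Satb1 and Mef2c) and 0 lower, with a median of 0.14. Satb1, a chromatin organiser of lymphoid cells, had levels of 11.92, 12.76, 10.77, 12.18 and 10.82 in the MLL-GAS7 mice, and ranged over 5.74 to 11.64, with a median of 8.64 in the other 29 mice. The difference was 3.05 ± 0.61 (adjusted p = 0.0022), and the call was lost within set 2 (adjusted p = 0.0521) and within set 1, and the difference was 1.84 for the mean of its probe sets. Aff3, a lymphoid relative of the MLL partner AFF1, averaged 8.82 ± 0.82 in the MLL-GAS7 mice (SD, n = 5), ranged over 5.78 to 8.93, with a median of 6.32 in the other cohorts, and averaged 9.84 ± 0.32 in the normal samples (SD, n = 4). Aff3 was higher than in the other cohorts (2.23 ± 0.29, adjusted p = 7.46e-06), and its change against normal marrow was -1.02 (adjusted p = 0.0517). Epb41l4b, a FERM-domain protein, differed by 2.42 ± 0.24 (adjusted p = 5.37e-08), with 28 of the 29 other mice below the lowest MLL-GAS7 mouse. The same 2 MLL-AF9 mice stood highest in their cohort for H2-Aa (11.83 and 12.46) and Aff3 (8.35 and 8.93). They also did for Epb41l4b (9.21 and 8.61) and Mef2c (12.87 and 12.91). They stood lowest in it for Akr1c13 (7.65 and 7.66) and Hdc (6.80 and 6.50). The 2 were also the highest in their cohort for Cd74, H2-Eb1, Satb1, Flt3 and Bcl2. For Hoxa9, Hoxa5, Ctsg, Mgam, Mgl2, Fnbp1l and Cd33 they were again the lowest. In all these genes the 2 mice thus lay on the MLL-GAS7 side of their cohort. In Meis1, Ms4a3, Stat4 and Gfi1 they did not both lie on the MLL-GAS7 side of their cohort. Mef2c (1.11, adjusted p = 0.0161), Flt3 (1.42, adjusted p = 0.0499) and Bcl2 (0.84, adjusted p = 0.0258) were above the mean of the other cohorts but not apart from each of them. Mef2c averaged 12.25 in the MLL-GAS7 mice, against 12.01 in those with MLL-AF9, with 2 of the 29 other mice above the highest MLL-GAS7 mouse. Flt3 averaged 10.90 in MLL-GAS7, against 10.22 in MLL-AF10 and 10.23 in MLL-AF9, and 3 of the 29 other mice lay below the lowest MLL-GAS7 mouse, GAS7_407, without which the difference was 2.15. Bcl2 averaged 10.21 in the MLL-GAS7 mice, against 9.77 in those with MLL-AF9, and 14 of the 29 lay below the lowest MLL-GAS7 mouse. Each of these 3 calls was lost without mouse GAS7_408 (adjusted p of 0.0616, 0.27 and 0.0662 for Mef2c, Flt3 and Bcl2), and those of Flt3 and Bcl2 also without mouse GAS7_405, GAS7_406 or GAS7_410, with adjusted p up to 0.125 for Flt3 and 0.0893 for Bcl2. Upb1, an enzyme of pyrimidine breakdown (2.13, adjusted p = 0.0257), lost its call in 8 of 21 alternatives, among them the removal of mouse GAS7_405, GAS7_407, GAS7_408 or GAS7_410 (adjusted p up to 0.086).

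Of the 17 MLL targets tested, 2 were higher in MLL-GAS7 than in the other cohorts (Flt3 and Mef2c) and 7 lower, with a median of -0.35. Of the 7 lower genes, Meis1, Hoxa5 and Hoxa9 had risen against normal marrow, and Hoxa7, Zeb2, Lmo2 and Myb, the last 3 named after their values were seen, had not been called against it. Meis1 differed by -1.56 ± 0.23 (adjusted p = 5.42e-05), and its levels of 8.39 to 9.82 in the MLL-GAS7 mice stood against 9.66 to 11.76, with a median of 10.68 in the other cohorts, with 28 of 29 other mice above the highest MLL-GAS7 mouse. Hoxa5 differed by -1.49 ± 0.27 (adjusted p = 0.000794), and by -0.90 without mouse GAS7_410 (adjusted p = 0.00567). The factors Zeb2 (-0.48, adjusted p = 0.0303), Lmo2 (-0.62, adjusted p = 0.0064) and Myb (-0.77, adjusted p = 0.00152) were lower by under 2-fold. The Zeb2 call was lost without mouse GAS7_405 or GAS7_407 (adjusted p up to 0.161) and those of Lmo2 and Myb without the 5 bright arrays (adjusted p = 0.15 and 0.203). Hoxa9 (-0.74 ± 0.19, adjusted p = 0.0208) and Hoxa7 (-1.07, adjusted p = 0.0336) were lower as well. Both calls were lost without mouse GAS7_408 or GAS7_410, with adjusted p up to 0.143 for Hoxa9 and 0.123 for Hoxa7, and that of Hoxa7 also without mouse GAS7_407 (adjusted p = 0.084). The F-BAR gene Fnbp1l was lower too (-1.61 ± 0.28, adjusted p = 0.00061).

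Early and late granule genes were again counted apart. Of 11 primary granule genes 5 were lower than in the other cohorts and 0 higher (median -0.55). Of 21 late neutrophil genes 1 was higher (Itgb2l, an integrin chain, 1.43, adjusted p = 0.0169, lost without mouse GAS7_405 or GAS7_410 with adjusted p up to 0.0913, and 0.50 for the mean of its probe sets) and 1 lower (Trem3, a myeloid receptor, -1.24, adjusted p = 0.000287), both named after their values were seen, with a median of 0.44 against -0.08 over all genes. Ms4a3 differed by -2.31 ± 0.28 (adjusted p = 3.06e-06), and 29 of 29 other mice lay above all MLL-GAS7 mice. Ctsg differed by -1.59 ± 0.21 (adjusted p = 7.46e-06) and Gfi1, a repressor that promotes granulocytes, by -1.45 ± 0.29 (adjusted p = 0.0018, and 0.0688 without the 5 bright arrays). The largest difference was in Akr1c13, an aldo-keto reductase, with levels of 5.84, 6.02, 6.23, 5.74 and 5.84 in the MLL-GAS7 mice, 7.29 to 10.61, with a median of 9.46 in the other cohorts, and 7.72, 8.20, 7.53 and 7.66 in the normal samples (-3.31 ± 0.35, adjusted p = 1.01e-07). Its MLL-GAS7 values sat near the bottom of the scale, so the size depends on the pseudocount. Over the alternatives the Akr1c13 difference ran from -4.49 to -2.55. Mgam, a maltase of granulocytes and gut (-2.31), Mgl2, a lectin of macrophages and dendritic cells (-2.13), Stat4, which relays interleukin-12 (-1.98), and Cd33 (-1.28) were lower with adjusted p of 0.000346, 0.000149, 0.000323 and 0.00126. Hdc, which makes histamine (-2.19, adjusted p = 0.0218), lost its call without mouse GAS7_405, GAS7_408 or GAS7_410 in turn (adjusted p up to 0.119). The clotting factor F7 (-1.71, adjusted p = 0.0132) lost its call without mouse GAS7_407 or GAS7_410 (adjusted p up to 0.0593), and the calcium channel Cacna1b (-1.71, adjusted p = 0.0228) without mouse GAS7_405 or GAS7_410 (adjusted p up to 0.0954).

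**Figure D4:**
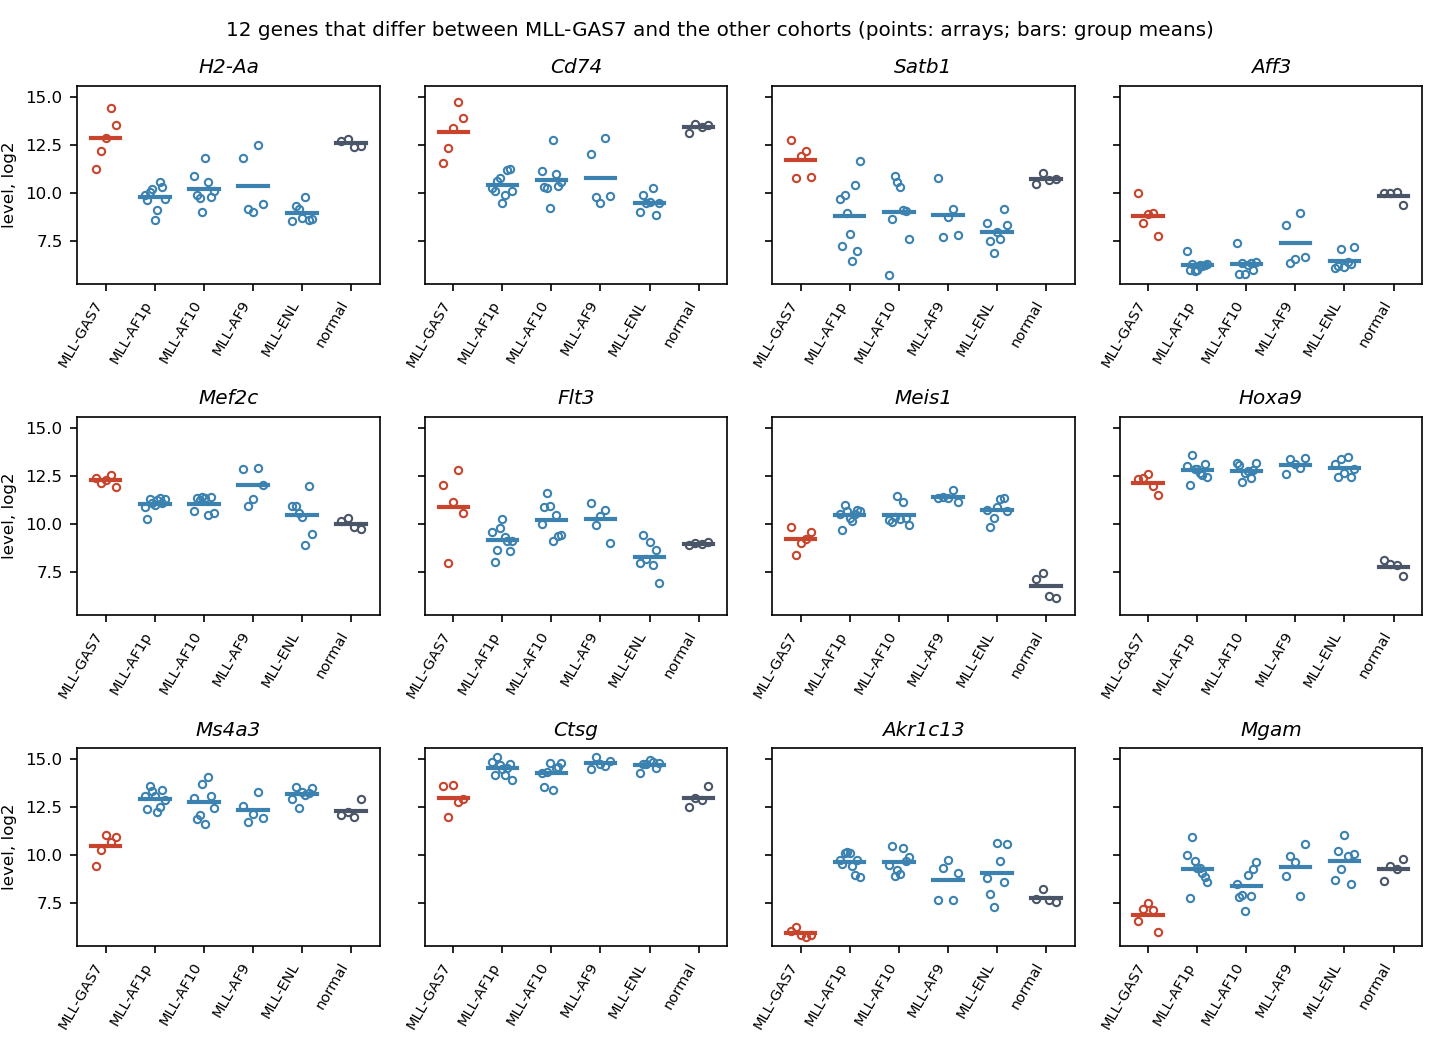
Levels (log2, y axis) of 12 genes in MLL-GAS7 (red, 5 mice), MLL-AF1p (9), MLL-AF10 (8), MLL-AF9 (5) and MLL-ENL (7) leukaemias (blue) and normal marrow (grey, 4), with points for arrays and bars for group means. H2-Aa and Cd74 in MLL-GAS7 marrow stand near normal marrow and above most other leukaemias, and Ms4a3 and Akr1c13 stand below all of them.

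The MLL-GAS7 mice also differed among themselves in the core targets. The median of the MLL fusion targets against the normal mean was 1.88, 2.21, 1.23, 1.63 and 0.89 in the 5 mice in order, lowest in mouse GAS7_410 and above all 4 normal samples in each, and 0.13, 0.08, -0.13 and 0.03 in the normal samples. Mouse GAS7_410 had the lowest Hoxa5 and Hoxa9 levels of the cohort, and mouse GAS7_407 the lowest levels of Meis1, Pbx3, Eya1, Flt3, Cd34 and Bcl2. The arrays of these mice also stood at the edge of the cohort in quality signs. The array of GAS7_407 had the highest log2 actin ratio (0.44) and the highest such ratio for Gapdh (-0.1). That of GAS7_410 had the brightest hybridisation controls (13.12). The part of array quality in the differences between these mice was not tested.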

How the data were processed

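The authors deposited 1 linear intensity per probe set and array for 45101 probe sets on 38 arrays, scaled to a 2% trimmed mean of 500, as the values show. The software that made them and any scan dates are not given in the sources used here, the intensities carry no detection calls, and the number of arrays limits the precision. Probe sets took names from the platform annotation, updated by Entrez identifier: 34945 had 1 symbol, 932 several and 9160 none.

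From the deposited intensities, 46.1 (their 25th percentile) was added before log2 was taken, and arrays were brought to 1 common median by a shift because medians spanned 0.537 on the log2 scale. Probe sets above their array's median on at least 4 arrays were kept, and the one with the highest mean stood for its gene. limma 3.58.1 in R 4.3.3 fitted 6 group means to all 38 arrays (32 residual degrees of freedom), with lmFit, eBayes and Benjamini-Hochberg adjustment over 13332 genes. Contrasts were MLL-GAS7 minus normal and MLL-GAS7 minus the unweighted mean of the other 4 cohorts, counted over 12851 genes of chromosomes 1 to 19. The fit was tested on simulated data with known changes. Nothing beyond the labels says that samples came from separate mice, so p-values measure the spread between these samples.

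Genes named are the 15 largest rises and falls among called genes without overlap, the 8 largest differences each way from the other cohorts, up to 6 called members each way of 36 gene lists, any member of a list with at most 15 measured members, Kmt2a and Gas7. Members, lists and rules were chosen with earlier results of these data known, and the array sets, Hba-a1, Cd22, Cd72, Zeb2, Lmo2, Myb, Itgb2l, Trem3 and the Y box letters after the values had been seen. S100a8, S100a9, Ngp, Olfm4, Vcan, Fcgr1 and Cd14 were also named after the values had been seen, and were not followed through the alternatives. Quality signs were compared by exact permutation over 126 splits of the 9 arrays. Promoters are RefSeq windows on GRCm38.p6. Alternatives varied scaling, pseudocount, filter, probe set choice, arrays in the fit, variance prior, array weights, array sets and each array in turn.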

Additional observations from a re-analysis of the deposited data

Results flagged for a closer look

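Among the 44 genes with every sample listed, 88 groups of 4 or 5 values were looked at, and in 3 of them 1 sample lay far from the rest of its own group, where chance gives about 1 in 20. Hoxa5 in mouse GAS7_410 was 6.35, with the other MLL-GAS7 mice between 8.99 and 9.64. Ppbp in mouse GAS7_407 was 8.68, with the others between 6.81 and 7.32. Among the normal samples, sample 3 was low for Car2, at 14.55 with the others between 14.75 and 14.77.

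Among the genes named above, a set changed by at least 2-fold more, or less, in MLL-GAS7 than in the mean of the other 4 cohorts, by limma's test of the difference itself (adjusted p under 0.05). Genes not named above were not considered for this set. Higher in MLL-GAS7 were Satb1 (3.05), H2-Aa (3.01), Cd74 (2.83), H2-Eb1 (2.49), Epb41l4b (2.42), Aff3 (2.23), Upb1 (2.13), H2-Ab1 (1.77), Itgb2l (1.43), Flt3 (1.42), Cd22 (1.36), H2-Oa (1.27), Cxcl12 (1.19), Adipoq (1.16), Mef2c (1.11) and Mx1 (1.03). Lower were Akr1c13 (-3.31), Mgam (-2.31), Ms4a3 (-2.31), Hdc (-2.19), Mgl2 (-2.13), Stat4 (-1.98), F7 (-1.71), Cacna1b (-1.71), Fnbp1l (-1.61), Ctsg (-1.59), Meis1 (-1.56), Hoxa5 (-1.49), Gfi1 (-1.45), Cd33 (-1.28), Trem3 (-1.24), Mcpt8 (-1.15), Slc25a37 (-1.13) and Hoxa7 (-1.07). Without mouse GAS7_410 the Hoxa5 difference was -0.90, under 2-fold. The stromal genes Cxcl12 and Adipoq, both lower than in normal marrow (-2.30 and -2.22), lost the call against the other cohorts without mouse GAS7_407 (adjusted p = 0.329 and 0.241), Cxcl12 also without GAS7_405 or GAS7_408 (up to 0.0839), and Mx1 lost it without GAS7_408 or GAS7_410 (up to 0.0885).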

How the results depend on the processing

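Of 152 named genes called against normal marrow, 137 were called under each of the up to 23 alternatives that tested them, and of 45 not called, 17 were called under at least 1. No named gene changed sign with a call under these alternatives, although a second probe set of Mycn was called lower. Of 42 named genes called against the other cohorts, 19 were called under each alternative except within array set 1, and 8 under each of up to 21. The count of genes called against normal marrow was 2736 to 3873 without single arrays (lowest without normal sample 4, highest without mouse GAS7_407), with 1576 to 2638 higher and 1123 to 1358 lower. In the fit of the 9 arrays alone the count was 2392, with 1301 higher and 1091 lower. The count was 3967 after quantile normalization and 4372 with array weights. Against the other cohorts it was 304 to 1092 without single mice (lowest without GAS7_410, highest without GAS7_406), with 69 to 196 higher and 208 to 896 lower. Within set 2 it was 273 (153 lower), within set 1 48 (8 higher, 40 lower) and without the 5 arrays of brightest hybridisation controls, a choice made after seeing the data, 238 (113 lower). The higher count was 284 on the deposited scale, 294 after quantile normalization and 255 with array weights. The cause of these shifts was not tested, and the fits within sets also held fewer arrays. Actin and 18S signs on the deposited scale had adjusted p of 0.143 each. No paired analysis was possible because the groups share no replicate numbers. Intensities have no detection calls, so for genes near the bottom of the scale the size of a fall depends on the pseudocount. Set 1 holds no normal sample, so no change against normal was computed within it.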
